A study of Mus musculus with 4 samples.

Results

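Plasmacytoid dendritic cells (pDCs) of B16-F10 tumours were described here in 2 single-cell libraries of endogenous CD45+ cells, 1 from each arm of an adoptive T cell transfer experiment. A barcode was taken as a pDC when it held at least 2 UMIs (unique molecular identifiers, each standing for 1 captured transcript) of Siglech, no UMI of Cd3d, Cd3e or Cd3g, fewer than 2 UMIs of Xcr1 plus Clec9a, and fewer than 10 Lyz2 UMIs per 10000. These requirements were met by 203 of the 12047 endogenous barcodes kept after quality control, out of 15132 kept barcodes in all 4 libraries. There were 55 in the IRF4 arm, against 148 in the control arm.

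C57BL/6 mice bearing B16-F10 melanoma, a transplantable line from that strain, received Pmel-1 CD8+ T cells 3 days after implantation, and tumours were sorted 14 days after implantation. In the IRF4 arm the Pmel-1 cells, which carry a T cell receptor for a melanocyte antigen, had been transduced with IRF4-GFP, and in the control arm with GFP alone. The pDCs belong to the recipient's own CD45+ cells, which the labels do not describe as transduced, so IRF4 names the treatment of the transferred cells and not of the cells measured here. The labels do not say how many tumours went into each library. Each arm has 1 library, so nothing in these data measures the spread between tumours and no test between arms was possible.

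pDCs are dendritic cells that arise in the bone marrow and circulate in blood. They detect RNA and DNA in endosomes through TLR7 and TLR9 and can answer with large amounts of type I interferon through IRF7. The E protein TCF4 (also called E2-2) maintains their identity and works against ID2, an inhibitor of E proteins that conventional dendritic cells carry. In mice, Siglech and Bst2 encode surface receptors that damp interferon release, Ccr9 encodes a chemokine receptor, and pDCs found inside tumours are known for releasing little interferon.

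The stretches of 250 bases upstream of the start of Siglech, Ccr9 and Klk1 (RefSeq, GRCm38.p6) are shown. These genes mark the cells and hold the letters marked below, and TCF4 is an E protein. Siglech lies at chr7:55767934-55768183 (plus strand), Ccr9 at chr9:123766961-123767210 (plus strand) and Klk1 at chr7:44225110-44225359 (plus strand), each written 5′ to 3′. Capitals mark the E-box CACCTG or its reverse complement CAGGTG. It starts 20 bases before the Siglech start, 85 bases before the Ccr9 start and 87 bases before the Klk1 start.
Siglech: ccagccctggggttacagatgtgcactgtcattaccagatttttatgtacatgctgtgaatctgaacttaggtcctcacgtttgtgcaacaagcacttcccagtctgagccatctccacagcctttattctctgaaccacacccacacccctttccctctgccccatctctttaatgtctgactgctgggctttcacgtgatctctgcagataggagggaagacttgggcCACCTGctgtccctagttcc
Ccr9: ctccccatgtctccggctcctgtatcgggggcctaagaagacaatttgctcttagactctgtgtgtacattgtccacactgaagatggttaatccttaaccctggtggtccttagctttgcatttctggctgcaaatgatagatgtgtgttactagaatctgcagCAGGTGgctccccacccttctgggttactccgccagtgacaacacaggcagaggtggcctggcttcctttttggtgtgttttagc
Klk1: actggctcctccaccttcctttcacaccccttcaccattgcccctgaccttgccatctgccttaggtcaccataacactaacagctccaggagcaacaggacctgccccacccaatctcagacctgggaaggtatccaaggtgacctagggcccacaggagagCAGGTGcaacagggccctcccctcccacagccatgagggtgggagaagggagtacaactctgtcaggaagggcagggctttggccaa
The 6 letters occurred on either strand within this window in 8 of the 17 pDC marker genes that have a listed promoter (47.1%), against 19.4% of 27025 genes. Besides the genes shown, these were Bst2, Cd300c, Irf8, Lifr and Paqr5. Tcf4, Cox6a2, Ly6d, Spib, Runx2 and Bcl11a were not among the genes holding the letters. A match in letters is a description of the sequence and not a binding site.

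The 4 libraries held between 715 and 6981 barcodes and between 16664323 and 94686409 UMIs. The endogenous libraries had 6981 barcodes in the IRF4 arm, against 6375 in the control arm, of which 6371 and 5676 were kept. Over all their barcodes, kept or not, they shared 18 sequences, none of them a pDC barcode. Among the Pmel-1 libraries, sorted as T cells, 1 of 572 kept barcodes in the IRF4 arm and 2 of 2513 in the control arm met the pDC requirements. Scrublet called 1 doublet in each endogenous library, a rate too low for the caller to have worked, so doublets were not removed and their weight was examined through the highest scores.

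pDCs made up a smaller share of the endogenous CD45+ barcodes in the IRF4 arm. The share was 0.863% (0.651% to 1.12%) in the IRF4 arm, against 2.61% (2.21% to 3.06%) in the control arm, a ratio of 0.331 (0.238 to 0.454). The intervals here and throughout are exact, at 95%, and cover counting error only. T cells set much of the denominator: only 2414 barcodes of the IRF4 arm were without Cd3 UMIs, against 3381 of the control arm. Among those, pDCs were 2.28% (1.72% to 2.96%) in the IRF4 arm, against 4.38% (3.71% to 5.12%) in the control arm, a ratio of 0.520 (0.375 to 0.714). The share was lower in the IRF4 arm by both denominators. A lower number was not particular to pDCs by the gates defined under processing. B cells were 114 and 466 barcodes in the IRF4 and control arms, and C1q macrophages 179 and 512. Type 1 conventional dendritic cells were 70 and 106, while CD8 T cells were 2342 and 1086. Among barcodes with 0 Siglech UMIs that met the rule's other terms, Ncr1, an NK cell gene, was in 59.3% of 1271 and 30.0% of 1467.

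The steps of the rule removed unequal parts of the Siglech barcodes. Of 106 barcodes with at least 2 Siglech UMIs in the IRF4 arm, 26 held a Cd3 UMI, 22 more reached the limit of 2 UMIs of Xcr1 plus Clec9a and 3 more reached the Lyz2 limit. Of 215 in the control arm, the same steps removed 37, 25 and 5. The quality limits also touched these cells, because their mitochondrial share was high for the libraries: the median was 6.81% in IRF4-arm pDCs and 6.43% in control-arm pDCs, against medians over all kept barcodes of 3.85% (IRF4 arm) and 3.70% (control arm). The limit of 10% left out 8 otherwise matching barcodes in the IRF4 arm, against 22 in the control arm. With a limit of 20% the ratio of shares was 0.340, and with 5%, which kept only 6 pDCs in the IRF4 arm, against 24 in the control arm, it was 0.212. The Lyz2 limit fell in a gap between barcodes: the highest value inside was 1.91 per 10000 UMIs in the IRF4 arm, against 9.51 in the control arm, and the lowest outside was 15.9 in the IRF4 arm, against 69.1 in the control arm.

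The barcodes carried the genes that define pDCs. They were deep, with a median of 10167 UMIs in the IRF4 arm, against 11145 in the control arm, and 3092 genes in the IRF4 arm, against 3267 in the control arm. Tcf4, which the rule did not use, had a UMI in all 55 and all 148 barcodes. After thinning every barcode to 1000 UMIs it was still seen in 83.6% of IRF4-arm pDCs and 77.7% of control-arm pDCs. Among CD8 T cells it was then seen in 0.598% of IRF4-arm and 2.30% of control-arm barcodes. CD8 T cells are not the nearest contrast, because B cells were the next gate by Tcf4 CPM, as given below. Ccr9 was seen in 51 of the 55 IRF4-arm pDCs and 143 of the 148 control-arm pDCs before thinning. All 21 pDC markers listed were measured, and the barcodes with few Siglech UMIs, described below, carried less of several of them.

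**Figure D1:**
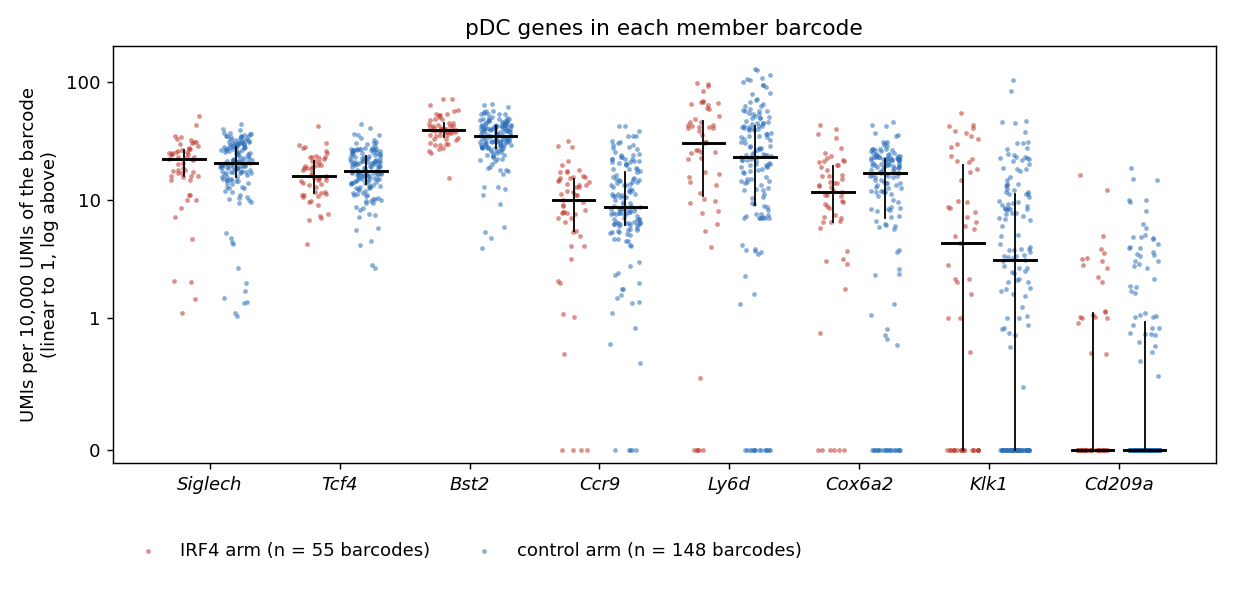
UMIs of 8 genes per 10000 UMIs of the barcode (linear to 1, log above), 1 point per pDC barcode, with the IRF4 arm in red (n = 55) left of the control arm in blue (n = 148); horizontal lines are medians and vertical lines run between quartiles. Siglech, Tcf4 and Bst2 are present in every barcode, whereas Klk1 is at 0 in 19 of 55 and 47 of 148 barcodes.

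The 15 genes with the highest ratio of pDCs over all other kept endogenous barcodes, averaged over both libraries, were Klk1, Siglech, Cox6a2, Ccr9, D13Ertd608e, Dntt, Cd300c, Ly6d, Atp2a1, Smim5, Paqr5, Upb1, Klk1b27, Lefty1 and Ccdc162. Since Siglech chose the cells, this ranking describes them and is no test. Klk1, a tissue kallikrein, had 1129 CPM (the gene's UMIs per 1000000 UMIs of the summed barcodes) in IRF4-arm pDCs and 824 CPM in control-arm pDCs, which was 141 times the level of the other barcodes in the IRF4 arm and 143 times in the control arm. Klk1b27 is a close relative of Klk1, and its UMIs are uncertain where reads could be assigned to either. Cox6a2, the muscle-type subunit of cytochrome c oxidase, had 1264 CPM in IRF4-arm pDCs and 1461 CPM in control-arm pDCs, 127 and 120 times the other barcodes. Dntt, the template-independent polymerase of lymphoid progenitors, had 117 CPM in IRF4-arm pDCs and 189 CPM in control-arm pDCs, and 0.739 and 1.58 CPM in the other barcodes of the IRF4 and control arms.

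Tcf4, Bcl11a, Runx2, Spib and Irf8, factors of the pDC programme, had higher CPM in pDCs than in the other gates of both libraries, though in the IRF4 arm Spib was within 1.5-fold of B cells. Tcf4 reached 1680 CPM (1576 to 1788) in IRF4-arm pDCs and 1822 CPM (1759 to 1887) in control-arm pDCs; the next gate, B cells, had 226 and 207 CPM. Bcl11a, a zinc finger factor needed for pDC development, had 755 CPM in IRF4-arm pDCs and 854 CPM in control-arm pDCs, and Runx2, which supports pDC egress from the marrow, had 603 CPM in IRF4-arm pDCs and 559 CPM in control-arm pDCs. Spib, an Ets factor shared with B cells, had 251 CPM in IRF4-arm pDCs and 219 CPM in control-arm pDCs, and B cells had 178 and 97.0 CPM. Irf8 had 3404 CPM in IRF4-arm pDCs and 3148 CPM in control-arm pDCs, and type 1 conventional dendritic cells (cDC1) were the next gate. Id2 was low, with 2 UMIs over all IRF4-arm pDCs and 44 over all control-arm pDCs, while cDC1 had 1071 CPM in the IRF4 arm and 1291 CPM in the control arm.

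Irf4 itself was close to the level of other cells. It gave 5 UMIs in IRF4-arm pDCs and 21 in control-arm pDCs, or 8.60 and 12.2 CPM, against 8.58 CPM in the other barcodes of the IRF4 arm and 8.07 CPM in those of the control arm. Irf7, the interferon regulatory factor that drives interferon alpha genes, had 223 CPM in IRF4-arm pDCs and 193 CPM in control-arm pDCs. Their order across gates is shown in the plot of levels by gate.

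**Figure D2:**
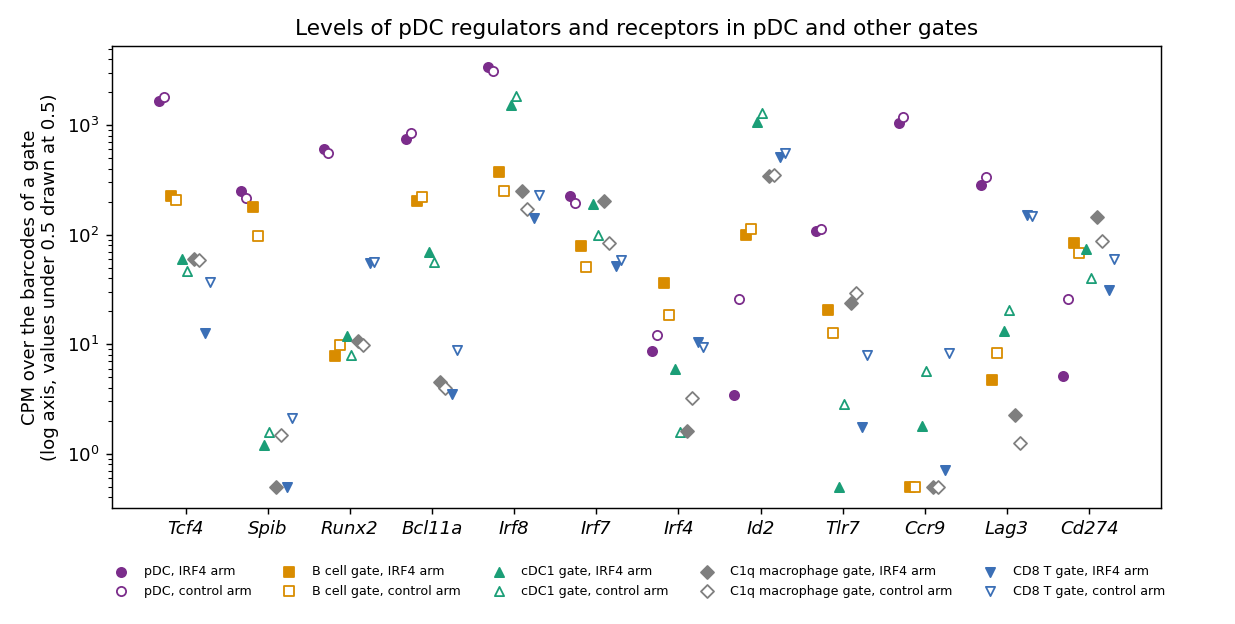
CPM (log axis) of 12 genes in pDCs and 4 other gates of the endogenous libraries, with filled symbols for the IRF4 arm and open symbols for the control arm. Tcf4, Spib, Runx2, Bcl11a, Irf8, Irf7, Tlr7, Ccr9 and Lag3 are highest in pDCs of both arms, and Id2 is lowest in them.

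The members differed among themselves with their Siglech count, the value that had chosen them, which is given as a description. Among barcodes with 7 or more Siglech UMIs, 50 in the IRF4 arm, against 138 in the control arm, Ccr9 had 1157 CPM in the IRF4 arm and 1283 CPM in the control arm, and Klk1 1264 and 904 CPM. The 5 IRF4-arm and 10 control-arm barcodes with 2 to 6 Siglech UMIs had 48.3 and 91.6 CPM of Ccr9, and Klk1 was at 0 in the IRF4 arm and at 6.54 CPM in the control arm. All 15 held Tcf4, at 1208 CPM in the IRF4 arm and 1184 CPM in the control arm. They carried more Cd209a, a lectin gene of cDC2, with 483 CPM in the IRF4 arm and 543 CPM in the control arm, against 96.2 and 102 CPM in the barcodes with 7 or more. Zbtb46, a factor of conventional dendritic cells, was at 32.2 and 52.3 CPM in the barcodes with few Siglech UMIs, and at 3.85 and 5.12 CPM in the others.

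Between arms the barcodes with few Siglech UMIs were unlike each other. The 5 of the IRF4 arm had 338 CPM of H2-Aa and 1804 CPM of Cd74, and the 10 of the control arm had 7427 CPM of H2-Aa and 20495 CPM of Cd74. For Klf4, a factor of conventional dendritic cells and monocytes, the values were 644 CPM in the IRF4 arm and 190 CPM in the control arm. Vim, which encodes vimentin, had 4881 CPM in the IRF4 arm and 1551 CPM in the control arm. Just outside the rule, the 11 IRF4-arm and 20 control-arm barcodes with 1 Siglech UMI that met its other terms held Tcf4 in 8 and 17 barcodes, and Ccr9 in 0 and 1. Results below are given without the barcodes under 7 Siglech UMIs where that changes them; this limit was chosen after the data were seen.

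**Figure D3:**
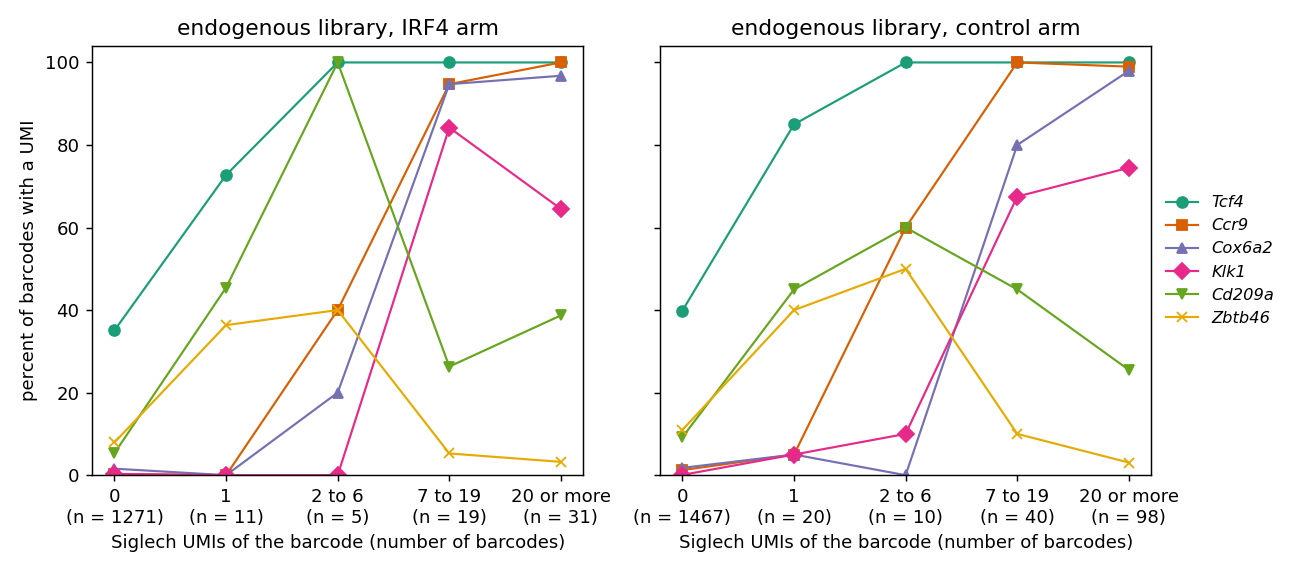
Percent of barcodes with a UMI of 6 genes, by the barcode's Siglech UMIs, among kept barcodes that meet the other terms of the rule (IRF4 arm left, control arm right; number of barcodes under each class). Ccr9, Cox6a2 and Klk1 are most frequent from 7 Siglech UMIs upward, though Ccr9 is in 40% (IRF4 arm) and 60% (control arm) of barcodes with 2 to 6. Cd209a and Zbtb46 are most frequent at 2 to 6.

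Between arms, pDCs were compared through their summed UMIs, 581688 in the IRF4 arm, against 1716208 in the control arm. A gene counted as measured with at least 50 CPM in either library and 20 UMIs over both, and as past the threshold when the ratio was 1.5 or more in either direction. Of 3281 genes measured, 119 (3.63%) were higher and 117 (3.57%) lower in the IRF4 arm, with a median log2 ratio of 0.01. These shares are the background for every list below, and a short list with few or no genes past 1.5 is near them. Against that background none of the 21 pDC markers was higher and 1 was lower, with a median log2 ratio of 0.11. The lower marker was Cd209d, a C-type lectin, at 127 CPM in IRF4-arm pDCs and 220 CPM in control-arm pDCs (ratio 0.579, 0.445 to 0.745), and without the barcodes under 7 Siglech UMIs its log2 ratio was -0.42.

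Several identity genes lay within a ratio of 1.5 between arms. Siglech, by which the cells were chosen, had 2017 CPM in the IRF4 arm and 2045 CPM in the control arm. Bst2 had 3994 CPM in the IRF4 arm and 3340 CPM in the control arm, with a log2 ratio of 0.26. Ly6d, a surface marker of lymphoid-primed pDC precursors, had 3239 CPM in the IRF4 arm and 2885 CPM in the control arm (ratio 1.12, 1.06 to 1.18). Ly6d was not particular to pDCs. After thinning it was seen in 78.2% of IRF4-arm and 76.4% of control-arm pDCs, and in 71.9% of IRF4-arm and 63.5% of control-arm B cells. Klk1 had 1129 CPM in the IRF4 arm and 824 CPM in the control arm, a ratio of 1.37, and was found in 36 of 55 and 101 of 148 barcodes. None of these genes passed 1.5. The same held for all 17 measured pDC transcription factors, with a median log2 ratio of 0.09.

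Sensing genes also lay mostly within a ratio of 1.5 between arms. Of 18 measured genes for nucleic acid sensing, 1 was higher and 1 lower, with a median log2 ratio of 0.05. Tlr7, the receptor for single-stranded RNA, had 108 CPM in the IRF4 arm and 113 CPM in the control arm, and Unc93b1, which carries the receptor to endosomes, had 794 CPM in the IRF4 arm and 789 CPM in the control arm. Chuk, a kinase of the NF-kappa B pathway, was higher, with 129 CPM in the IRF4 arm and 83.3 CPM in the control arm, a ratio of 1.55 (1.15 to 2.06). Lgmn, a lysosomal protease that processes endosomal receptors, was lower, with 79.1 CPM in the IRF4 arm and 155 CPM in the control arm, a ratio of 0.510 (0.365 to 0.700), but after thinning its log2 ratio was 0.51. Tlr9 gave only 4 UMIs in the IRF4 arm, against 6 in the control arm.

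Interferon transcripts were almost absent. Of the 19 type I and III interferon genes listed, 17 had no UMI in either arm. The pDCs of the IRF4 arm held 4 UMIs in 3 of 55 barcodes, namely 3 of Ifnb1 and 1 of Ifnz, and those of the control arm held 1 UMI of Ifnb1 in 1 of 148. A count of 0 allows up to 5.16 CPM in the IRF4 arm and 1.75 CPM in the control arm. Tnf gave 20 UMIs in the IRF4 arm, against 44 in the control arm, Il12a 6 and 13, and Il12b none. Gzmb, which pDCs can express after stimulation, gave 2 UMIs in the IRF4 arm, against 5 in the control arm.

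The response to type I interferon was close between arms in pDCs. Of 16 measured response genes 1 was higher and none lower, with a median log2 ratio of 0.17. The higher gene was Usp18, which removes ISG15 from proteins, at 67.0 CPM in the IRF4 arm and 39.0 CPM in the control arm, a ratio of 1.72 (1.13 to 2.59), with a log2 ratio of -1.39 at the mitochondrial limit of 5%. Isg15 stayed under the level for a measured gene, with 30.9 CPM in the IRF4 arm and 37.3 CPM in the control arm. In other gates the same list gave 14 of 26 measured genes higher among cDC1, 25 of 31 among C1q macrophages, 8 of 18 among B cells and 0 of 18 among CD8 T cells, with median log2 ratios of 0.66, 0.94, 0.32 and -0.18. Isg15 had 386 CPM in IRF4-arm C1q macrophages and 107 CPM in control-arm ones. Over all measured genes 4.29% were higher among cDC1, 6.39% among C1q macrophages, 9.62% among B cells and 6.06% among CD8 T cells. Whether pDCs differ from these gates could not be tested with 1 library an arm. The 7 measured genes of the interferon gamma response had none higher and none lower, with a median log2 ratio of 0.18.

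**Figure D4:**
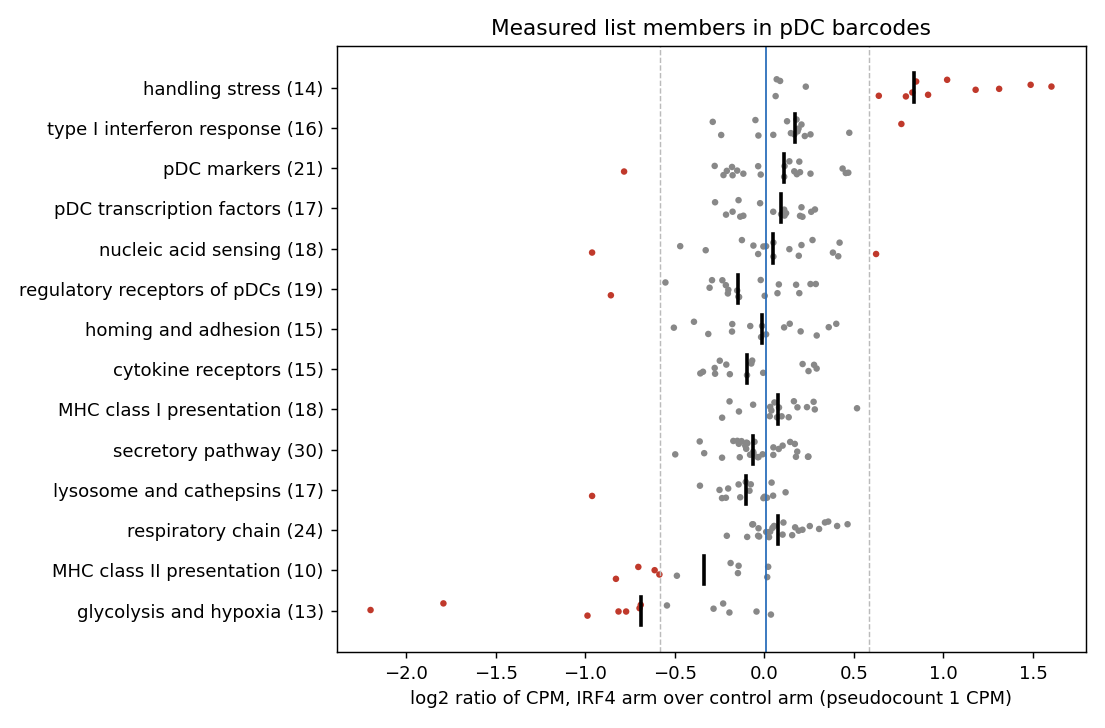
log2 ratio of CPM in pDCs, IRF4 arm over control arm, for the measured members of 14 gene lists (number measured in brackets); red points are past a ratio of 1.5 (dashed lines), black bars are list medians and the blue line is the median of all measured genes. Handling stress genes lie to the right with a median of 0.84, and glycolysis and hypoxia genes to the left with a median of -0.69.

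The handling stress list holds immediate early genes, which cell stimulation and tissue digestion switch on quickly, and heat shock genes, and it was higher in the IRF4 arm. Of 14 measured genes of this list 10 were higher and none lower, with a median log2 ratio of 0.84. Fos, a subunit of AP-1, had 767 CPM (697 to 841) in IRF4-arm pDCs and 252 CPM (229 to 277) in control-arm pDCs, a ratio of 3.05 (2.66 to 3.49). Jund had 1358 CPM in the IRF4 arm and 720 CPM in the control arm, a ratio of 1.89 (1.72 to 2.06). Fosb had 228 UMIs in the IRF4 arm, against 296 in the control arm, summed over 55 and 148 barcodes, a ratio in CPM of 2.27 (1.90 to 2.71). Egr1, a zinc finger factor, had 101 CPM in the IRF4 arm and 35.5 CPM in the control arm, and Dusp1, a phosphatase that switches off MAP kinases, had 91.1 CPM in the IRF4 arm and 36.1 CPM in the control arm. Jun, Hspa8, Btg2 and Hspa1b did not pass 1.5. Hspa1a did, at 155 CPM in the IRF4 arm and 86.8 CPM in the control arm, but it is nearly identical to Hspa1b and was found in only 8 of 55 and 32 of 148 barcodes.

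The upstream 250 bases are shown for 3 of the higher genes that hold the letters marked below. Fos lies at chr12:85473640-85473889 (plus strand), Fosb at chr7:19310046-19310295 (minus strand) and Dusp1 at chr17:26508473-26508722 (minus strand), written 5′ to 3′ on the gene's strand. Capitals mark TGACG, the core of the cyclic AMP response element, or its reverse complement CGTCA; where both overlap, as in 1 stretch of Dusp1, the whole stretch is in capitals.
Fos: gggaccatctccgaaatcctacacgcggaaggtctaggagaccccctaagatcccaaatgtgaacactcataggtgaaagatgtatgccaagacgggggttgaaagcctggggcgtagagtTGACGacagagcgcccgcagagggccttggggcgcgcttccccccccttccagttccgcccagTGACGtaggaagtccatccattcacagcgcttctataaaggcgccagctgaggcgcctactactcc
Fosb: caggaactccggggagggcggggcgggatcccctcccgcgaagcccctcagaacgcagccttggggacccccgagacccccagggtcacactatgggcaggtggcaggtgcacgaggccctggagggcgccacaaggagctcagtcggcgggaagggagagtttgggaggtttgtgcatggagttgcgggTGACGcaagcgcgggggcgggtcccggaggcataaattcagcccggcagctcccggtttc
Dusp1: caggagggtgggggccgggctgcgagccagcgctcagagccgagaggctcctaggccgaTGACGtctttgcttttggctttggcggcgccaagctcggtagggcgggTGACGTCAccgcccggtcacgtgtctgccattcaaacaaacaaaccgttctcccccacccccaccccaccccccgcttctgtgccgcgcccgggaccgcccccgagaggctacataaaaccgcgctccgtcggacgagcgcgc
The 5 letters occurred in 6 of the 13 genes of the list with a listed promoter (46.2%), against 19.8% of all 27025 genes. These were Fos, Fosb, Dusp1 and Junb, which were higher, and Atf3 and Btg2, which were not among the higher genes. Egr1, Jund, Hspa1a, Zfp36, Ier2 and Klf6 were higher and not among the genes holding the letters.

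The difference in immediate early genes was not evenly spread over the barcodes. Summed over the list, IRF4-arm pDCs had a median of 74.6 UMIs per 10000 with quartiles of 39.6 and 109, and control-arm pDCs a median of 56.4 with quartiles of 38.2 and 74.4. The lower quartiles lay close together, and the upper parts of the distributions apart. Fos had a UMI in 37 of 55 barcodes in the IRF4 arm and 85 of 148 in the control arm. Without the barcodes under 7 Siglech UMIs, 6 genes of the list were higher and the median log2 ratio was 0.46, with Fos at 1.18, Jund at 0.76 and Hspa1a at -0.22. In other gates of the same libraries, 12 of 16 measured genes were higher in the IRF4 arm among cDC1, 11 of 16 among C1q macrophages, 7 of 16 among B cells and 1 of 16 among CD8 T cells, and none, none, 1 and 3 were lower. The shares of all measured genes that were higher are those given above for these gates, from 4.29% among cDC1 to 9.62% among B cells.

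Klf2, a factor of quiescence and trafficking in leukocytes, was among the 10 highest ratios. It had 591 CPM in IRF4-arm pDCs and 235 CPM in control-arm pDCs, a ratio of 2.52 (2.17 to 2.92), and was found in 85.5% and 69.6% of barcodes. Adgre5, which encodes the adhesion receptor CD97, had 112 CPM in the IRF4 arm and 29.7 CPM in the control arm, a ratio of 3.76 (2.57 to 5.54), and was found in 31 of 55 and 29 of 148 barcodes. Without the barcodes under 7 Siglech UMIs the log2 ratio was 1.23 for Klf2 and 1.93 for Adgre5. Both genes were also higher in the IRF4 arm in the B cell, C1q macrophage and CD8 T gates. Klf2 was at 1786, 211 and 254 CPM in these gates of the IRF4 arm, against 1170, 119 and 190 CPM in the control arm. Adgre5 was at 129, 53.0 and 78.2 CPM, against 97.4, 38.5 and 70.4 CPM. The other genes among the 10 highest ratios were Tppp3, Dusp2, Fos, Ccl4, Gcnt2, Egr1, Dusp1 and Myadm. Tppp3 rested on 37 UMIs in the IRF4 arm, against 8 in the control arm, and 1 barcode held at least 50% of them in each arm. Ccl4, a chemokine, had 560 CPM in the IRF4 arm and 195 CPM in the control arm, but 2 barcodes held at least 50% of its UMIs in each arm, and without each library's 2 highest barcodes its log2 ratio was 0.25.

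Glycolysis and hypoxia genes were lower in the IRF4 arm. Of 13 measured genes 7 were lower and none higher, with a median log2 ratio of -0.69. Tpi1, triosephosphate isomerase, had 53.3 CPM (36.2 to 75.6) in IRF4-arm pDCs and 187 CPM (167 to 209) in control-arm pDCs, a ratio of 0.285 (0.190 to 0.413), and was found in 19 of 55 and 80 of 148 barcodes. Gapdh had 968 CPM in the IRF4 arm and 1562 CPM in the control arm, a ratio of 0.620 (0.565 to 0.679). Pkm, pyruvate kinase, had 225 CPM in the IRF4 arm and 397 CPM in the control arm, a ratio of 0.568 (0.467 to 0.685). Aldoa had 246 CPM in the IRF4 arm and 399 CPM in the control arm, with a ratio of 0.616 (0.511 to 0.739). Eno1, Ero1l and P4ha1 were the other lower genes, and Ldha, at 383 CPM in the IRF4 arm and 450 CPM in the control arm, and Hif1a, at 122 CPM in the IRF4 arm and 126 CPM in the control arm, did not pass 1.5. The 24 measured genes of the respiratory chain had none higher and none lower, with a median log2 ratio of 0.08. That is near the shares over all measured genes, 3.63% higher and 3.57% lower.

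The sequences upstream of Aldoa and P4ha1, both lower in the IRF4 arm, are given for the hypoxia element. Aldoa (1 of its listed starts) lies at chr7:126799255-126799504 (minus strand) and P4ha1, a prolyl hydroxylase of collagen, at chr10:59323046-59323295 (plus strand). Capitals mark ACGTG, the core bound by HIF factors and also a part of the E-box CACGTG, or its reverse complement CACGT.
Aldoa: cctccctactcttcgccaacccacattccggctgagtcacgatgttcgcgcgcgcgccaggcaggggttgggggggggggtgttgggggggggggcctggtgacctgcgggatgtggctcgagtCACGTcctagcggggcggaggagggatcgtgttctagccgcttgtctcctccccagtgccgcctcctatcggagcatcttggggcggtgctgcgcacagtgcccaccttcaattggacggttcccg
P4ha1: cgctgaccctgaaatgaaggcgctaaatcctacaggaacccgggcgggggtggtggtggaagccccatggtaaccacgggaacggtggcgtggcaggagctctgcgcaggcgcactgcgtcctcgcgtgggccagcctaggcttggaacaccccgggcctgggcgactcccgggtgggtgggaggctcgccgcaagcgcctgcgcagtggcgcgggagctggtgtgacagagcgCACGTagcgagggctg
The 5 letters occurred in 13 of the 21 genes of the list with a listed promoter (61.9%), against 18.5% of all 27025 genes. Of the genes holding them, Aldoa, P4ha1 and Pkm were lower. Bnip3, Egln3, Hif1a, Hk2, Ldha, Pgam1, Pgk1, Slc16a3, Slc2a1 and Vegfa, not all of them measured, were not among the lower genes. Tpi1, Gapdh, Eno1 and Ero1l were lower and not among the genes holding the letters. The letters were therefore not particular to the lower genes.

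Per barcode, the glycolysis and hypoxia list had a median of 27.2 UMIs per 10000 in IRF4-arm pDCs, with an upper quartile of 32.4, and 32.5 in control-arm pDCs, with an upper quartile of 44.3. The distributions overlapped, and the control arm had the longer upper tail. The count of lower genes depended on how barcodes near other cell types were treated: it was 3 with Lyz2 at 0 (35 and 63 barcodes), 2 with no Lyz2 limit (58 and 153 barcodes), 3 without the 6% highest doublet scores and 3 after thinning to 1000 UMIs. Tpi1 and Gapdh had negative log2 ratios in each of these settings, from -2.35 to -0.41 for Tpi1 and from -0.61 to -0.38 for Gapdh. Eno1 did not keep its direction, with 0.023 without the Lyz2 limit. The monocyte and macrophage marker list, with 2 of 11 members measured and both lower (Lyz2, which the rule limits, and Apoe), summed to 77.4 CPM in IRF4-arm pDCs and 241 CPM in control-arm pDCs, and without Lyz2 to 36.1 CPM in the IRF4 arm and 144 CPM in the control arm. Without the Lyz2 limit the log2 ratio was 1.04 for Lyz2 and -0.30 for Apoe. C1q UMIs were in 3 of 55 and 24 of 148 barcodes. Gapdh in C1q macrophages was at 5669 CPM in the IRF4 arm and 5343 CPM in the control arm. The part of these transcripts in the result was not tested. Among cDC1, 0 of 17 measured genes of the list were lower, among C1q macrophages 0 of 20 (and 2 higher), among B cells 1 of 12 and among CD8 T cells 5 of 18. Over all measured genes 2.28%, 3.36%, 5.07% and 9.79% were lower in these gates, in the same order.

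**Figure D5:**
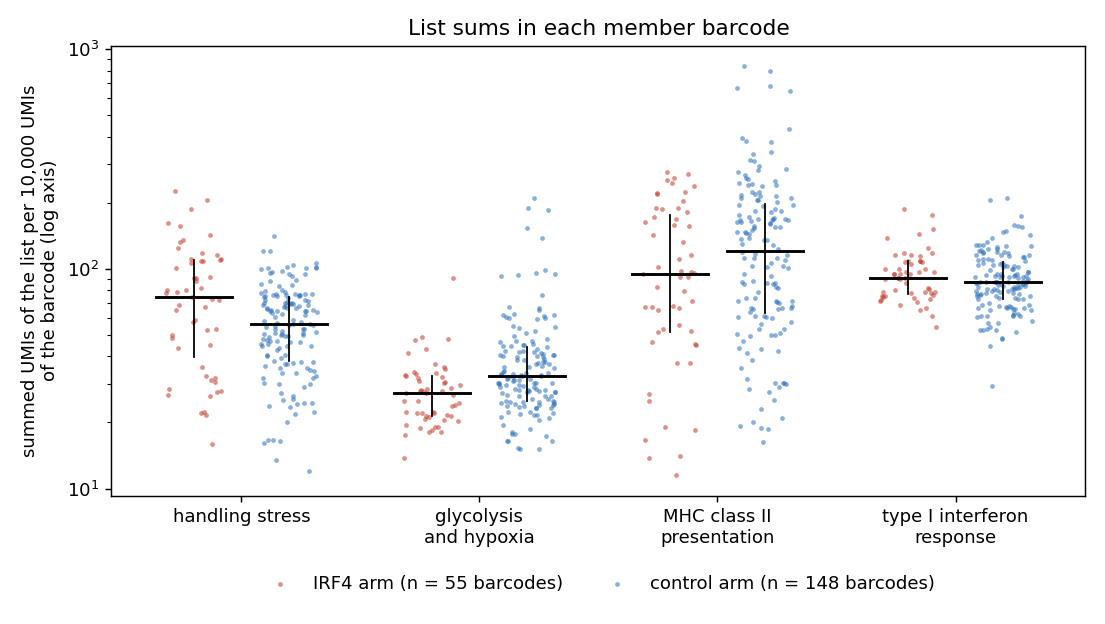
Summed UMIs of 4 gene lists per 10000 UMIs of the barcode (log axis), 1 point per pDC barcode, IRF4 arm in red (n = 55) left of the control arm in blue (n = 148); horizontal lines are medians and vertical lines run between quartiles. The arms overlap in every list, with handling stress at medians of 74.6 and 56.4 and glycolysis and hypoxia at 27.2 and 32.5.

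Many of the UMIs behind the 10 lowest ratios came from 1 control barcode. The genes were Spp1, Thbs1, Cxcl2, Pf4, Ccl9, Hmox1, Ccl6, Hilpda, Tmem176a and Ero1l, most of them genes of macrophages and hypoxic myeloid cells. For 8 of the 10 the same barcode held the most UMIs, and it was the deepest of all pDC barcodes, with 23821 UMIs. It held 23 Siglech, 30 Tcf4 and 37 Ccr9 UMIs together with 510 of the 548 Spp1 UMIs of the control arm, 267 of the 319 Thbs1 UMIs and 15 Lyz2 UMIs. Spp1, which encodes osteopontin, had no UMI in the IRF4 arm, and against the count of 3 per library that a 0 allows it was at least 61.9-fold lower, but without that barcode the control arm kept 38 UMIs and the bound was 4.35-fold. Of the other genes this barcode topped, Cxcl2 and Ccl9, also at 0 in the IRF4 arm, were then at least 5.61-fold and 5.04-fold lower, and Pf4 kept 7 UMIs in the control arm, too few for a bound. Thbs1, Hmox1, Ccl6 and Hilpda had 1, 1, 1 and 2 UMIs in the IRF4 arm and kept 52, 83, 75 and 52 in the control arm. With Lyz2 at 0 the log2 ratio of Thbs1 was 1.88. Without that barcode the glycolysis and hypoxia list kept a count of 7 lower, with a median log2 ratio of -0.62. Tmem176a, found in 7 of 55 and 46 of 148 barcodes, was spread more widely, with 17.2 CPM in the IRF4 arm and 99.6 CPM in the control arm (ratio 0.173, 0.0813 to 0.325).

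Some genes of MHC class II presentation were lower in the IRF4 arm over all pDC barcodes, and none passed 1.5 among those with 3 or more Siglech UMIs. Of 10 measured genes 4 were lower and none higher, with a median log2 ratio of -0.34. H2-Aa had 1582 CPM in IRF4-arm pDCs and 2375 CPM in control-arm pDCs, a ratio of 0.666 (0.619 to 0.716). H2-Eb1 had 834 CPM in the IRF4 arm and 1482 CPM in the control arm, and H2-Ab1 had 1291 CPM in the IRF4 arm and 1975 CPM in the control arm. Cd74, the invariant chain, had 5426 CPM in the IRF4 arm and 7612 CPM in the control arm, a ratio of 0.713 (0.685 to 0.741). With at least 3 or at least 7 Siglech UMIs no gene of the list was past 1.5; the median log2 ratio was -0.29 with at least 3 and -0.12 with at least 7, and with at least 7 the log2 ratio was -0.12 for both H2-Aa and Cd74. MHC class I presentation, with 18 genes measured, had none higher and none lower and a median log2 ratio of 0.08.

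Receptors that set pDC activity and position lay, with 1 exception, within a ratio of 1.5 between arms. Of 19 measured regulatory receptors none was higher and 1 was lower. It was Cd200r1, an inhibitory receptor, at 43.0 CPM in the IRF4 arm and 78.7 CPM in the control arm, a ratio of 0.546 (0.342 to 0.842). Lag3, an inhibitory receptor shared with T cells, had 287 CPM in the IRF4 arm and 338 CPM in the control arm, a ratio of 0.850 (0.711 to 1.01), and exceeded the CD8 T cells, which had 153 CPM in the IRF4 arm and 148 CPM in the control arm. Of 15 homing and adhesion genes and 15 cytokine receptor genes measured, none was higher and none lower. Over all measured genes 3.63% were higher and 3.57% lower, so the counts of these receptor and homing lists are near that background. Cxcr3, a receptor for interferon-induced chemokines, had 115 CPM in the IRF4 arm and 107 CPM in the control arm. Cd274, encoding PD-L1, gave 3 UMIs in the IRF4 arm, against 44 in the control arm, under the level for a measured gene.

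The secretory machinery, which is large in pDCs, had no measured gene past 1.5 between arms. This is near the shares over all measured genes, 3.63% higher and 3.57% lower. All but 2 of its 32 listed genes were measured, none was higher and none lower, and the median log2 ratio was -0.06. Xbp1, the factor of the unfolded protein response that plasma cells share, had 418 CPM in the IRF4 arm and 436 CPM in the control arm. Of 17 lysosomal genes only Lgmn, with the values given above, was lower, and of 22 genes of lipid and nucleotide handling only Dntt, with a ratio of 0.617 (0.468 to 0.804). Cycling was rare: a UMI of Mki67, Top2a, Birc5, Cdk1 or Ccnb2 was in 10 of 55 IRF4-arm pDCs and 15 of 148 control-arm pDCs, against 34.0% and 25.9% of other barcodes, and at most 1 pDC per library held 2 or more.

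Markers of transitional dendritic cells, a Siglech-expressing type between pDCs and cDC2, were mixed. Of 7 measured genes Klf4 and Crip1 were higher and Ltb was lower, with a median log2 ratio of -0.15. Klf4 had 167 CPM in the IRF4 arm and 74.6 CPM in the control arm, a ratio of 2.24 (1.70 to 2.93), but after thinning its log2 ratio was -0.057 and it was seen in 3 of 55 and 11 of 148 barcodes. Crip1 had 1006 CPM in the IRF4 arm and 456 CPM in the control arm, a ratio of 2.21 (1.98 to 2.46). Without the barcodes under 7 Siglech UMIs the log2 ratios were 0.78 for Klf4 and 0.63 for Crip1. Ltb, which encodes lymphotoxin beta, had 13 UMIs in the IRF4 arm, against 163 in the control arm, a ratio in CPM of 0.235 (0.123 to 0.414), found in 8 of 55 and 40 of 148 barcodes.

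Markers of B cells and NK cells were low in pDCs of both arms, while some other lists gave more UMIs. Cd79a and Ms4a1 together had no UMI in 55 IRF4-arm pDCs, and were in 1 of 148 control-arm pDCs. Ncr1 and Klrb1c of NK cells had none in either arm. By exact 95% intervals, 0 barcodes with a UMI allow a share of barcodes with one, not of cells expressing the gene, of up to 6.49% in the IRF4 arm, against 2.46% in the control arm; 3 counts of the total would be 5.45% and 2.03%. The T cell list summed to 557 CPM in the IRF4 arm and 573 CPM in the control arm, with Cd3d, Cd3e and Cd3g at 0 by the rule, and it consisted mostly of Cd4, Cd8a and Cd8b1, which mouse pDCs can carry. The plasma cell list, which holds Ighm, Igkc and Xbp1, summed to 1931 CPM in the IRF4 arm and 1978 CPM in the control arm. The cDC2 list summed to 1380 and 1516 CPM. Lyz2 had a UMI in 36.4% of IRF4-arm and 57.4% of control-arm pDCs, and Trac or Trbc2 in 16.4% and 9.46%. Red cell markers had no UMI in the IRF4 arm, against 99 in the control arm, 57.7 CPM. No measured gene of the T cell, B cell, plasma cell, cDC1 or cDC2 lists was past 1.5, and the NK, neutrophil, mast cell, red cell and melanoma lists had no measured gene. Il4i1, the 1 measured marker of mature dendritic cells, was lower and was found in 2 of 55 IRF4-arm pDCs and 12 of 148 control-arm pDCs. The measured genes for cytotoxic granules (2), proliferation (3), apoptosis (5) and costimulation (2) had none higher and none lower. Of 2 measured factors of conventional dendritic cells Klf4 was higher, with the values after thinning and by the mean of barcodes given above. Of 6 measured cytokine and chemokine genes Ccl4 was higher and Ccl6, Ccl9 and Ltb were lower.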

How the data were processed

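Droplet 3′ libraries were made with the 10x Genomics v3 chemistry, per the labels' protocols, which speak of a single-nucleus suspension although sorted cells are described; the pDCs' median mitochondrial share was above 6% in both arms. Cell Ranger 3.0.2, STAR 2.6 and mm10 are named in the submitters' processing notes; the gene annotation was not given in the sources used here. All deposited values are UMI counts per gene and barcode, not normalized. Barcodes with at least 1000 UMIs, 500 genes and at most 10% mitochondrial UMIs were kept. The pDC members and the 36 gene lists were chosen with earlier results of these data known. Named genes were a fixed set of 28, up to 4 members per list past a ratio of 1.5, the 10 highest and 10 lowest ratios between arms and the 15 highest ratios over other barcodes; ribosomal protein, mitochondrial, predicted and antigen receptor genes were left out of the rankings. Other genes named as examples are list members chosen after their values were seen.

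UMIs were summed over the pDC barcodes of a library and expressed as CPM, with exact Poisson intervals. Ratios have exact conditional binomial intervals, log2 ratios use a pseudocount of 1 CPM, and shares have Clopper-Pearson intervals. PCR duplicates are removed by the UMIs, and intervals cover counting error only. Comparison gates required Siglech under 2 UMIs and, for CD8 T cells, at least 2 Cd3 UMIs and 1 Cd8a or Cd8b1 UMI; for others no Cd3 UMI and Cd79a plus Ms4a1 of at least 4 (B cells), Xcr1 plus Clec9a of at least 2 (cDC1), or C1q genes of at least 10 (macrophages). Scripts ran in Python 3.11.15 with numpy 2.4.6, scipy 1.17.1 and scanpy 1.11.5, whose Scrublet gave the doublet scores, and were tested on simulated data. Alternatives are described in the closing section.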

Additional observations from a re-analysis of the deposited data

How the results depend on the processing

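No paired analysis was possible because each arm has 1 library and no test was made. The values were recomputed under 21 alternatives, of which those with at least 7 Siglech UMIs, a mitochondrial limit of 20%, no deepest control barcode and no 2 highest barcodes per gene were chosen after seeing the data; a median was taken to have moved at a shift above 0.2, also chosen then. Of 12 summaries none changed direction where a called value had one, though medians of the pDC marker and interferon response lists, which were near 0, changed sign as given below. With 1 library an arm, no depth replaces replicate tumours. The cause was not tested for the changes below except where the construction shows it.

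The ratio of pDC shares was 0.212 with a mitochondrial limit of 5%, 0.495 with Lyz2 at 0 and 0.520 among barcodes without Cd3 UMIs. The number of genes measured can change with the setting and is not given, so the counts below cannot be read as shares. Genes higher and lower numbered 588 and 764 at the 5% limit (6 and 24 barcodes, so counting noise is large), 235 and 242 with Lyz2 at 0, 215 and 256 after thinning, 183 and 193 when scaled without ribosomal and mitochondrial genes, 724 and 802 with genes measured from 10 CPM, 34 and 31 from 100 CPM, and 44 and 214 without each gene's 2 highest barcodes, which takes 2 of 55 against 2 of 148 barcodes and so lowers the IRF4 arm more.

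Handling stress genes higher numbered 6 with at least 7 Siglech UMIs, 5 after thinning and 5 without the 2 highest barcodes; their median log2 ratio was 0.52 with at least 3 Siglech UMIs, 1.75 at the 5% limit, 1.07 with Lyz2 at 0, 0.46 with at least 7 Siglech UMIs, 0.59 after thinning and 0.50 without the 2 highest barcodes. Glycolysis and hypoxia genes lower numbered 3 with Lyz2 at 0, 2 without the Lyz2 limit, 3 without the highest doublet scores, 3 after thinning and 16 from 10 CPM; the median was -1.35 at the 5% limit, -0.48 with Lyz2 at 0, -0.24 without the Lyz2 limit, -0.43 without the highest doublet scores and -0.44 after thinning. MHC class II genes lower numbered 0 with at least 3 or 7 Siglech UMIs, 7 at the 5% limit, 1 with Lyz2 at 0, 2 without the Lyz2 limit, 2 after thinning and 1 by the mean of each barcode's CPM; the median was -2.11 at the 5% limit, -0.11 with Lyz2 at 0 and -0.12 with at least 7 Siglech UMIs. Of pDC markers, 2 were higher and 9 lower at the 5% limit with a median of -0.55, none was lower with Lyz2 at 0, where the median was -0.10, none was lower with at least 7 Siglech UMIs, and 3 were higher after thinning. The median of the type I interferon response list was -0.91 at the 5% limit and -0.033 with genes measured from 10 CPM.

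Of 86 single genes followed, 11 that were past 1.5 over all pDCs changed sign in their log2 ratio as follows; genes within 1.5 also changed sign under some settings and are not listed. Hspa1a was at -0.16 with at least 3 and -0.22 with at least 7 Siglech UMIs, and H2-DMb2 at 0.61 with at least 7. Usp18 was at -1.39 at the 5% limit. Tlr9 was at -0.51 and Thbs1 at 1.88 with Lyz2 at 0. Eno1 was at 0.023 and Lyz2 at 1.04 without the Lyz2 limit. After thinning Tlr9 was at -2.96, Klf4 at -0.057, Apod at 0.20, Lgmn at 0.51, H2-DMb2 at 0.10 and Junb at -0.40, and without the 2 highest barcodes Tlr9 was at -0.29.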

Other observations

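Immunoglobulin transcripts were present in pDCs that held almost no B cell markers. Ighm was found in 54 of 55 IRF4-arm pDCs and 148 of 148 control-arm pDCs, at 947 CPM in the IRF4 arm and 850 CPM in the control arm, against 3055 and 2737 CPM in B cells of the IRF4 and control arms and 70.0 and 105 CPM in CD8 T cells. Iglc3, a lambda light chain constant gene, was at 725 CPM in IRF4-arm pDCs and 731 CPM in control-arm pDCs, and at 630 and 703 CPM in B cells. Iglc2, which is nearly identical to Iglc3, was at 337 CPM in the IRF4 arm and 144 CPM in the control arm, with at least 50% of its UMIs in 3 of 55 and 6 of 148 barcodes. Igkc, the kappa constant gene, had a UMI in 45.5% of IRF4-arm pDCs and 51.4% of control-arm pDCs, at 303 and 380 CPM against 22088 and 10606 CPM in B cells.

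UMIs of T cell coreceptor genes were also found in pDCs, which by the rule held no Cd3 UMI. Cd4 had a UMI in 24 of 55 IRF4-arm pDCs and 88 of 148 control-arm pDCs, and after thinning in 12.7% of IRF4-arm and 11.5% of control-arm pDCs, while 28 of 2342 IRF4-arm and 8 of 1086 control-arm CD8 T cells held one after thinning. No B cell barcode held Cd4 after thinning (0 of 114 and 0 of 466). Cd8a had a UMI in 20 of 55 IRF4-arm pDCs and 55 of 148 control-arm pDCs. After thinning Cd8a was seen in 5.45% (1.14% to 15.1%) of IRF4-arm pDCs, where 1.75% (0.213% to 6.19%) of B cells held it, with overlapping intervals. In the control arm it was seen in 8.11% (4.26% to 13.7%) of pDCs and 0.644% (0.133% to 1.87%) of B cells. Dntt was found in 26 of 55 and 93 of 148 pDCs, and Rag1 gave no UMI in the IRF4 arm, against 2 in the control arm.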
